A study of Macaca mulatta with 30 samples.

Results

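The BPIF genes encode the BPI-fold-containing proteins, a family of secreted proteins built around the lipid-binding fold of the bactericidal/permeability-increasing protein BPI. All genes of the deposited expression table whose symbol begins with BPIF were taken, which gave 10 of its 21292 genes: BPIFA1, BPIFA2, BPIFA3, BPIFA4, BPIFB1, BPIFB2, BPIFB3, BPIFB4, BPIFB6 and BPIFC. RNA was sequenced from liver, pancreas and the salivary glands (parotid, submandibular and sublingual) of 6 rhesus macaques, with 1 library per tissue and animal and 30 libraries in all. The females were animals 1 to 4 and the males animals 5 and 6, the tissue was flash frozen, no treatment is named in the labels, and ages are not given there. The library name of animal 3 gives the right parotid and those of the other animals give the left. The study asked how gene expression in each salivary gland compares with that in pancreas, and in pancreas with that in liver, within the same animals.

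Proteins of this family are made mainly by epithelia that face the mouth and the airways, and reach saliva and mucus. The short members, named BPIFA, carry a single BPI-like domain, whereas the long members, named BPIFB, and BPIFC carry a pair of them, as do BPI, the lipopolysaccharide-binding protein LBP and the plasma lipid transfer proteins CETP and PLTP. BPIFA2 is parotid secretory protein, a long-known protein of saliva, and BPIFA1 and BPIFB1 are best known from the airway lining. In the T2T-MMU8v2.0 assembly as annotated by RefSeq, 9 of the 10 genes stood in one run on chromosome 10, in the order BPIFB2, BPIFB6, BPIFB3, BPIFB4, BPIFA2, BPIFA4, BPIFA3, BPIFA1 and BPIFB1. BPIFC stood apart on the same chromosome, between FBXO7 and RTCB.

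Levels are TPM, in which the abundance of a transcript is divided by its length and set to the same total of 1000000 in every library, so levels of different genes can be set side by side, and sequencing depth is unknown. Differences are log2 fold changes of TPM + 1 from a limma model of tissue and animal fitted to the 13550 genes that reached 1 TPM in 6 libraries or more, and a gene is called where its adjusted p-value is below 0.05. The model included 8 of the 10 genes; BPIFA1 and BPIFA3 were below the filter. BPIFB3, BPIFB4, BPIFB6 and BPIFC reached 1 TPM mostly or only in the tissues where they were highest, so their passing the filter already favoured a difference. Among near relatives in one gene cluster, reads common to several genes may have been divided between them in a way the sources used here do not state. In pieces of whole tissue, fewer cells of a type and less RNA per cell cannot be told apart.

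Of the 30 libraries, 5 stood apart by marker genes that are not BPIF genes. In the pancreas library of animal 4, the 14 pancreas markers summed to 4964 TPM, against 332710 to 422701 TPM in the other 5 animals, and the 7 adipose markers to 18343 TPM, against at most 1747 TPM. The submandibular library of animal 4 held 1387 TPM of the 7 serous cell markers, against 165928 to 225975 TPM in the other 5, and 8411 TPM of the adipose markers, against at most 139.6 TPM. The parotid library of animal 6 held 84715 TPM of the 8 skeletal muscle markers. Animals 1 and 4 had sublingual libraries in which the 8 airway and squamous epithelial markers summed to 27335 and 78892 TPM, against 23.9 to 391.7 TPM in the other 4, with KRT13, SPRR3 and CRNN, genes of squamous lining epithelium, carrying the sum.

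BPIFA2 was by far the most abundant family member in parotid and submandibular gland, and BPIFB1 in 5 of the 6 sublingual libraries. Together the 10 genes took 1.95 to 7.51% of all TPM in the 6 parotid libraries, with a median of 3.10%. In submandibular gland they took 8.45 to 14.0% in 5 animals and 0.0491% in animal 4. The share in sublingual gland ran from 0.120% in animal 4 to 2.40% in animal 5. Pancreas and liver lay lower, at 0.0954 to 0.174% and 0.146 to 0.289%, so that both stayed under every parotid library and under 5 of the 6 submandibular ones. BPIFA2 made up at least 99.1% of the family's TPM in every parotid library. In sublingual gland BPIFB1 made up 55.6 to 91.7% of it in animals 1, 2, 3, 5 and 6, and in animal 4 BPIFA2 led with 53.9%.

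**Figure D1:**
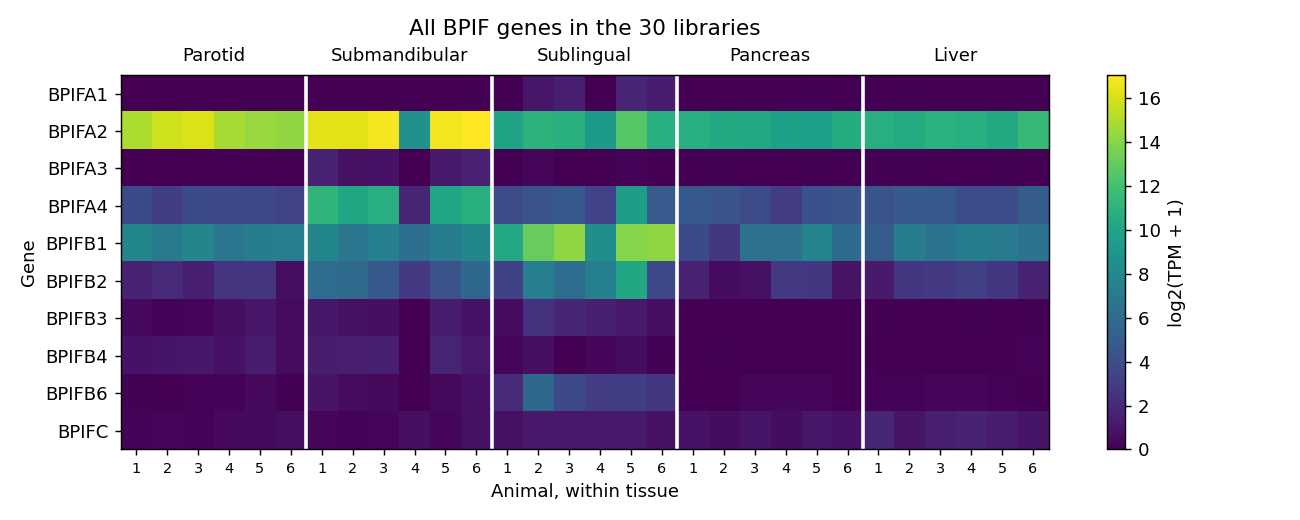
Heat map of log2(TPM + 1), on a colour scale, for the 10 BPIF genes (vertical axis) in the 30 libraries (horizontal axis, animals 1 to 6 within each tissue). BPIFA2 is bright in parotid and submandibular gland, apart from animal 4 in the latter, BPIFB1 is bright in sublingual gland, and BPIFA1, BPIFA3, BPIFB3, BPIFB4 and BPIFC are dark throughout.

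BPIFA2, the parotid secretory protein, stood in animals 1 to 6 at 32203, 58844, 74909, 29412, 22232 and 19294 TPM in parotid, a mean of 39482 ± 22314 (SD, n = 6). In submandibular gland it stood at 85754, 83114, 118120, 406.4, 113856 and 138344 TPM, a mean of 89932 ± 48558, or 107838 ± 23300 without animal 4. By rank it was between the 6th and the 9th most abundant gene of the parotid libraries, and between the 3rd and the 6th in submandibular gland, apart from animal 4, where it was the 410th. All 5 of those other submandibular values lay above all 6 parotid values, and animal 4 lay below all of them.

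The other 3 tissues held BPIFA2 at lower levels that overlapped. Sublingual gland gave 1003, 2060, 1802, 644.4, 6174 and 1706 TPM in animals 1 to 6, a mean of 2231 ± 2003. Liver had a mean of 1808 ± 514 TPM and a range of 1306 to 2758, and pancreas a mean of 1250 ± 362 TPM and a range of 786 to 1701. These ranges overlapped one another, and none of them overlapped the parotid range. From highest to lowest, the order of the mean levels was submandibular gland, parotid, sublingual gland, liver and pancreas.

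In limma, every animal had more BPIFA2 in parotid than in sublingual gland (log2 fold change 4.35, SE 0.79, adjusted p = 0.000238) and than in liver (4.31, adjusted p = 6.39e-05). Submandibular gland exceeded sublingual gland by 4.61 (SE 0.79, adjusted p = 0.000298) and liver by 4.58 (adjusted p = 3.44e-05), with animal 4 the exception in both. In that order parotid and sublingual gland were the only neighbours called apart. Parotid minus submandibular gland gave -0.27 (95% interval -1.88 to 1.35, adjusted p = 1.0), sublingual gland minus liver -0.03 (-1.65 to 1.58, adjusted p = 0.980) and pancreas minus liver -0.54 (-2.16 to 1.07, adjusted p = 0.643). Pancreas was below liver in 6 of 6 animals, but in 3 of 6 with trimmed-mean scaling, where the mean difference was -0.10. The first of these intervals rests on animal 4: without its pancreas and submandibular libraries, parotid minus submandibular gland was -1.49 (adjusted p = 0.175), and submandibular gland minus pancreas was 6.36 in place of 5.12.

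**Figure D2:**
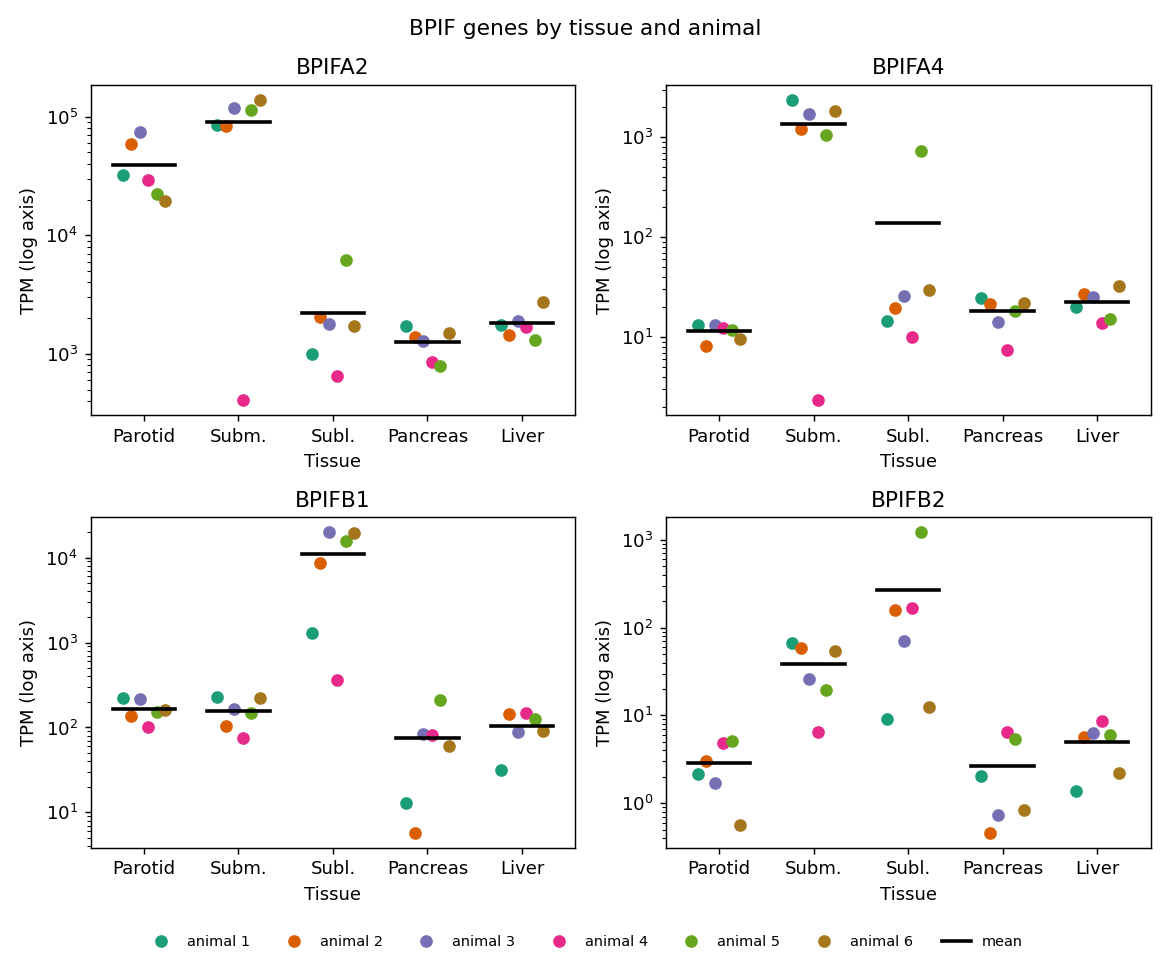
TPM of BPIFA2, BPIFA4, BPIFB1 and BPIFB2 on log axes (vertical) in the 5 tissues (horizontal; Subm., submandibular; Subl., sublingual), with 1 point per animal and a bar at the mean. BPIFA2 and BPIFA4 are high in submandibular gland except in animal 4, BPIFB1 is highest in sublingual gland, and the sublingual library of animal 5 is the highest of its tissue for BPIFA2, BPIFA4 and BPIFB2.

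BPIFA4, also listed as BASE in the RefSeq table, is the direct neighbour of BPIFA2 and was a submandibular transcript in 5 of the 6 animals. Its submandibular values were 2362, 1199, 1704, 2.34, 1042 and 1823 TPM in animals 1 to 6, a mean of 1355 ± 813 (SD, n = 6), or 1626 ± 527 without animal 4. In parotid it stood at 8.20 to 13.1 TPM, a mean of 11.4 ± 2.02, which was the narrowest spread of the gene in any tissue. The parotid level was also the lowest of the 5 tissue means, below pancreas at 18.1 ± 6.42 TPM and liver at 22.3 ± 7.17 TPM, although parotid minus pancreas was not called (log2 fold change -0.55, adjusted p = 0.659) and turned to 0.15 with trimmed-mean scaling. Sublingual gland held 9.97 to 29.4 TPM in 5 animals and 725.2 TPM in animal 5, which lay above the other sublingual values and below all submandibular values except that of animal 4.

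BPIFA4 was the only family member called between parotid and submandibular gland, the pair in which limma called the fewest genes: 1 of the 8 BPIF genes tested, where 0.347% of all genes were called in either direction. Its log2 fold change, parotid minus submandibular gland, was -5.51 (SE 0.93, adjusted p = 0.00342), lower in parotid in 5 of 6 animals. Without the pancreas and submandibular libraries of animal 4 it was -6.85 (adjusted p = 3.52e-07). The call was lost when only the 12 libraries of the pair were fitted (adjusted p = 0.310) and when animal 1, 2, 3 or 6 was left out (adjusted p = 0.0580 to 0.0841), all with animal 4 retained. BPIFA4 was also higher in submandibular gland than in pancreas (4.96, SE 0.93, adjusted p = 0.000548), liver (4.64, adjusted p = 0.000214) and sublingual gland (3.97, adjusted p = 0.00334), each in 5 of 6 animals. Leaving out animal 1 took the last of these to 3.32 (adjusted p = 0.0502). Between parotid and sublingual gland it was not called (-1.54, adjusted p = 0.175), but without the pancreas and submandibular libraries of animal 4 the same difference was called (adjusted p = 0.0282).

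The remaining short members were near 0. BPIFA1, an abundant protein of the upper airway lining, was listed at 0 in every parotid library and in the sublingual libraries of animals 1 and 4, and stood at 1.04 to 2.50 TPM in the other 4 sublingual libraries. Elsewhere it reached at most 0.0729 TPM. BPIFA3 was above 0.5 TPM only in submandibular gland, at 2.27, 0.668, 0.755, 1.38 and 2.00 TPM in animals 1, 2, 3, 5 and 6, and was listed at 0 there in animal 4. Its highest value in any other tissue was 0.245 TPM. The sublingual airway and squamous marker sum did not mark the libraries with BPIFA1: the gene was listed at 0 in both libraries where that sum was high.

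BPIFB1, a long member known from mucus-secreting epithelium of the airways and mouth, was the sublingual counterpart of BPIFA2. Its sublingual values in animals 1 to 6 were 1291, 8644, 19758, 363.9, 15881 and 19444 TPM, a mean of 10897 ± 8772 (SD, n = 6), and it was the 3rd most abundant gene in animal 6 and the 5th in animal 3. The 2 lowest of these values came from the libraries with the high squamous marker sums, and whether other tissue in those pieces lowered them was not tested. Even so, the lowest sublingual value lay above all 24 values of the other tissues, whose highest was 228.3 TPM. Parotid and submandibular gland held 165.9 ± 47.9 and 157.4 ± 62.6 TPM, with overlapping ranges. Liver stood at 105.1 ± 43.7 TPM. Pancreas stood at 76.2 ± 74.5 TPM and was the most variable of the 4, with its lowest value of 5.77 TPM in animal 2 and its highest of 212.1 TPM in animal 5.

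In limma, BPIFB1 was lower in parotid than in sublingual gland by a log2 fold change of -5.07 (SE 0.72, adjusted p = 1.70e-05) and lower in submandibular than in sublingual gland by -5.20 (SE 0.72, adjusted p = 3.03e-05), each in 6 of 6 animals. Sublingual gland exceeded liver by 5.83 (adjusted p = 2.84e-07), also in 6 of 6. Without the 5 libraries that stood apart, the first 2 differences were -6.33 and -6.36 (adjusted p = 2.39e-07 and 2.28e-07). The other levels were not told apart: parotid minus submandibular gland was 0.13 (95% interval -1.35 to 1.61, adjusted p = 1.0) and pancreas minus liver -1.07 (-2.55 to 0.41, adjusted p = 0.279). Parotid minus pancreas (1.83, SE 0.72, adjusted p = 0.0818) and submandibular gland minus pancreas (1.70, adjusted p = 0.145) did not pass the threshold. Both passed it once the pancreas and submandibular libraries of animal 4 were left out, at 2.26 (adjusted p = 0.0357) and 2.06 (adjusted p = 0.0472).

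BPIFB2, another long member, differed widely between animals. It stood at 9.15, 157.6, 69.7, 165.9, 1216 and 12.4 TPM in the sublingual libraries of animals 1 to 6, a mean of 272 ± 467 (SD, n = 6). Submandibular gland held 67.5, 58.2, 26.0, 6.40, 19.3 and 53.7 TPM, a mean of 38.5 ± 24.6. In parotid it was at most 5.10 TPM, in pancreas at most 6.45 TPM and in liver at most 8.54 TPM. The sublingual range lay above all values of these 3 tissues and overlapped the submandibular range. BPIFB2 and BPIFB1 ranked the sublingual libraries differently: animal 4 had the lowest BPIFB1 and the second-highest BPIFB2, and animal 6 had high BPIFB1 and low BPIFB2.

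BPIFB2 was lower in parotid than in sublingual gland (log2 fold change -4.55, SE 0.72, adjusted p = 6.54e-05) and higher in sublingual gland than in pancreas (4.80, adjusted p = 2.41e-05) and liver (3.93, adjusted p = 9.65e-05), in 6 of 6 animals each time. Submandibular gland exceeded pancreas by 3.39 (adjusted p = 0.00219) in 5 of 6. Parotid minus submandibular gland was -3.14 (SE 0.72, adjusted p = 0.0555), lower in 6 of 6 animals with ranges that did not overlap. Without the pancreas and submandibular libraries of animal 4 this difference was -3.73 and was called (adjusted p = 0.00856). Submandibular minus sublingual gland was -1.41 (95% interval -2.90 to 0.08, adjusted p = 0.144). With 1 animal left out it ran from -2.24 without animal 1 to -0.51 without animal 5, it was called without animal 6 (-2.09, adjusted p = 0.0434), and it was -0.53 with trimmed-mean scaling.

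BPIFB6 and BPIFB3, long members reported to reside inside the secretory pathway, were low and highest in sublingual gland. BPIFB6 stood there at 3.20, 50.9, 12.5, 7.71, 7.89 and 5.69 TPM in animals 1 to 6, and at no more than 0.837 TPM in any of the 24 other libraries. It was called against each of the other tissues, but it passed the filter only through its 6 sublingual libraries, which already favoured these calls. Parotid minus sublingual gland was -3.24 (SE 0.33, adjusted p = 1.28e-07) and submandibular minus sublingual gland -2.93 (adjusted p = 1.71e-06). Sublingual gland minus pancreas and minus liver were 3.30 and 3.25 (adjusted p = 6.23e-08 and 6.84e-09). BPIFB3 had means of 1.90 TPM in sublingual gland, 0.803 TPM in submandibular gland and 0.467 TPM in parotid, and was at most 0.0682 TPM in pancreas and liver. Its sublingual range, 0.422 to 4.63 TPM, overlapped those of both other glands. It was called in parotid minus sublingual gland (-0.85, adjusted p = 0.00886), but not with trimmed-mean scaling (-0.41, adjusted p = 0.300), with only the 12 libraries of the pair (adjusted p = 0.0594) or without animal 2 or 3 (-0.55 and -0.70, adjusted p = 0.0852 and 0.0716). It was also called in submandibular gland minus pancreas (0.77, adjusted p = 0.0445), but not with any 1 of animals 1, 2, 3, 5 or 6 left out.

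BPIFB4 was lowest of the glands in sublingual gland, at a level near 1 TPM in the other 2. Its means were 1.44 ± 0.807 TPM in submandibular gland, 0.944 ± 0.401 TPM in parotid and 0.279 ± 0.239 TPM in sublingual gland, and it reached at most 0.123 TPM in pancreas and liver. In submandibular gland it was 1.30 to 2.43 TPM in 5 animals and listed at 0 in animal 4. It was higher in parotid than in sublingual gland by 0.60 (SE 0.19, adjusted p = 0.0137, 6 of 6 animals) and in submandibular than in sublingual gland by 0.86 (adjusted p = 0.00192, 5 of 6). The first of these calls was lost without animal 1, 3 or 5 (adjusted p = 0.0545 to 0.0818), and the second with only the 12 libraries of the pair (adjusted p = 0.0705).

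BPIFC, the member outside the run, was the only one whose highest mean was in liver. It stood at 2.65, 0.840, 1.73, 2.30, 1.61 and 0.944 TPM in the livers of animals 1 to 6, at a mean of 1.07 ± 0.278 TPM in sublingual gland, and at 0.779 ± 0.259 TPM in pancreas. Parotid and submandibular gland held less, at 0.286 ± 0.182 and 0.327 ± 0.262 TPM, and stayed below every liver value. BPIFC reached 1 TPM in 9 libraries, 4 of them from liver and 4 from sublingual gland. Its passing the filter thus already favoured a difference from parotid and submandibular gland. Parotid minus liver was -1.03 and submandibular gland minus liver -0.99 (SE 0.18, adjusted p = 4.01e-05 and 6.94e-05), in 6 of 6 animals each. These were not far from the medians over all genes, -0.84 and -0.70, and 53.4% and 45.1% of all genes were called lower. With trimmed-mean scaling BPIFC was still called lower in both, where 23.5% and 25.9% of all genes were.

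Counted by comparison, most family members were called between sublingual gland and either other gland, and 1 each between parotid and submandibular gland and between pancreas and liver. Against pancreas, 2 of 8 genes were called for parotid (BPIFA2 and BPIFB4), where 15.8% of all genes were (2.24% higher in parotid), 5 of 8 for submandibular gland (BPIFA2, BPIFA4, BPIFB2, BPIFB3 and BPIFB4), where 9.71% were (2.25% higher), and 4 of 8 for sublingual gland (BPIFB1, BPIFB2, BPIFB3 and BPIFB6), where 13.9% were (10.4% higher). All of these were higher in the gland. In pancreas minus liver, BPIFC was the only one of 8 called, where 30.4% of all genes were. It was lower in pancreas (-0.56, SE 0.18, adjusted p = 0.0194), and the call was lost without animal 1 or animal 4, with only the 12 libraries of the pair, with a pseudocount of 0.1, and with trimmed-mean scaling, where it was -0.26.

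Parotid and sublingual gland differed in 7 of 8 genes, where 41.5% of all genes were called, and submandibular and sublingual gland in 6 of 8, where 27.9% were. The directions were split by member. BPIFA2 and BPIFB4 were higher in parotid than in sublingual gland, a direction in which 0.893% of all genes were called, and BPIFB1, BPIFB2, BPIFB3, BPIFB6 and BPIFC were lower, where 40.6% were. In submandibular minus sublingual gland, BPIFA2, BPIFA4 and BPIFB4 were higher, where 0.753% of all genes were, and BPIFB1, BPIFB6 and BPIFC lower, where 27.2% were. Against liver, 3, 6 and 4 of 8 genes were called for parotid, submandibular and sublingual gland, where 58%, 50.7% and 31.5% of all genes were. Higher in the gland were 2, 5 and 4, where 4.61%, 5.68% and 12.8% of all genes were. BPIFC was lower in parotid and submandibular gland, where 53.4% and 45.1% of all genes were. With trimmed-mean scaling 4, 5 and 4 were higher, where 20.0%, 20.8% and 20.4% of all genes were. The comparisons share libraries and are not independent. The counts include BPIFB3, BPIFB4, BPIFB6 and BPIFC, which passed the filter mostly or only through the tissues where they were highest.

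The lopsided background of the gland pairs depended on the scaling. The median log2 fold change over all genes was -0.70 for parotid minus sublingual gland and -0.56 for submandibular minus sublingual gland. With trimmed-mean scaling, 8.43% of all genes were called higher and 9.11% lower in the former, and 6.46% and 8.26% in the latter. BPIFA2 and BPIFB4 were still called higher in parotid, and BPIFB1, BPIFB2 and BPIFB6 lower, whereas BPIFB3 and BPIFC (-0.35, adjusted p = 0.137) were not called. In submandibular minus sublingual gland BPIFC was likewise not called under that scaling (-0.39, adjusted p = 0.109), and the other 5 genes were. That BPIFC call was also lost with only the 12 libraries of the pair (adjusted p = 0.106) and without animal 2, 3 or 5 (adjusted p = 0.0637 to 0.0758). Against pancreas, the same scaling gave 8.92% of all genes higher and 8.45% lower in parotid, 8.25% and 7.82% in submandibular gland, and 11.4% and 9.97% in sublingual gland, and the members called were the same with BPIFB1 added for parotid and submandibular gland. In pancreas minus liver it called 15.2% higher and 21.6% lower and no member.

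Without the pancreas and submandibular libraries of animal 4, the counts against pancreas rose to 4 for parotid, where 19.3% of all genes were then called, and to 7 for submandibular gland, where 29.4% were. They rose to 2 for parotid against submandibular gland (0.583% of all genes) and to 8 for parotid against sublingual gland (58.4%). The other 6 comparisons had the same number of members called.

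**Figure D3:**
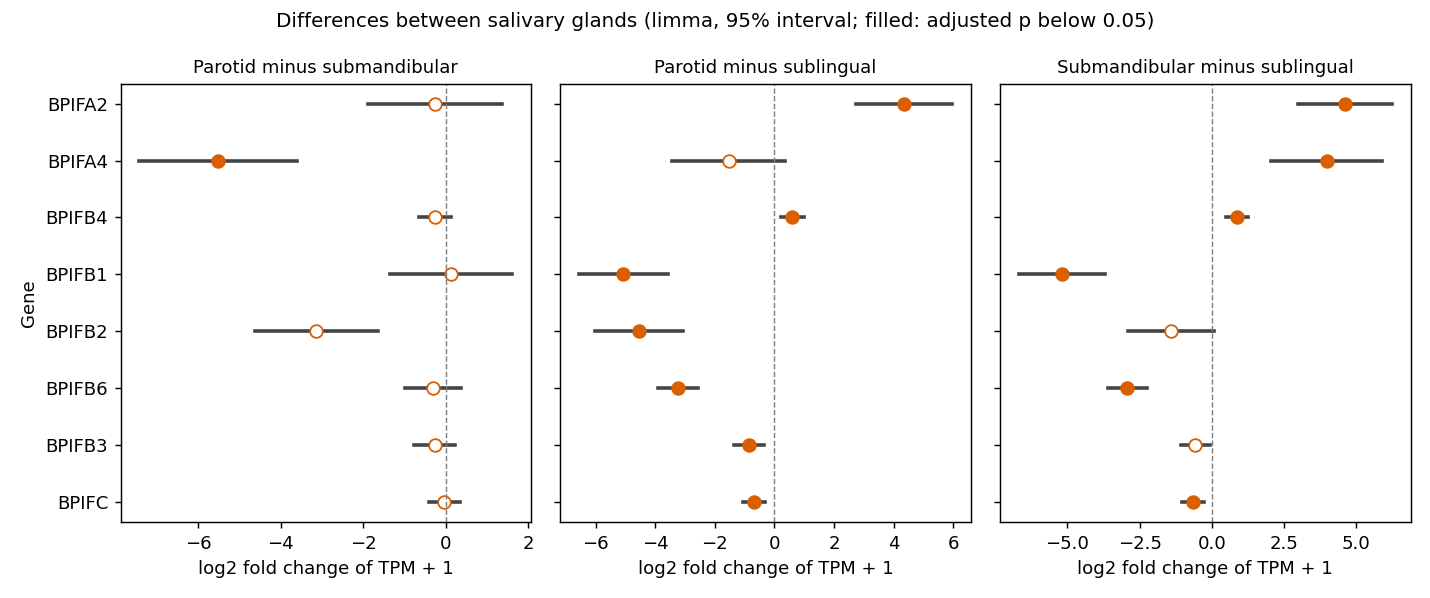
Log2 fold changes of TPM + 1 (horizontal axis) between each pair of salivary glands for the 8 BPIF genes in the limma model (vertical axis), as points with 95% intervals; filled points have an adjusted p-value below 0.05. BPIFA4 is the single filled point for parotid minus submandibular gland, and BPIFA2 and BPIFB1 lie on opposite sides of 0 in both comparisons with sublingual gland.

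The balance of BPIFB1 to BPIFA2 within a library does not depend on the total to which TPM are scaled. The log2 ratio of BPIFB1 to BPIFA2, computed from TPM + 1, was -7.16, -8.73, -8.41, -8.17, -7.17 and -6.90 in the parotid libraries of animals 1 to 6. In submandibular gland it was -8.55, -9.64, -9.46, -2.43, -9.59 and -9.26, and in sublingual gland 0.36, 2.07, 3.45, -0.82, 1.36 and 3.51. Every sublingual library lay above every library of both other glands, and the submandibular library of animal 4 lay above all other submandibular and parotid ones. The means were -7.76 ± 0.77, -8.15 ± 2.84 and 1.66 ± 1.72.

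Sublingual gland exceeded parotid in this log2 ratio by 9.41 ± 1.88 (SD, n = 6 animals) and submandibular gland by 9.81 ± 4.28, in 6 of 6 animals each. With the signs of the animals' differences flipped in an exact two-sided permutation test, both gave p = 0.0312, the smallest value 6 animals allow, and 0.0469 after adjustment over the 3 gland pairs. Submandibular gland minus parotid gave -0.40 ± 3.08 (exact p = 0.812), with 5 of 6 animals lower in submandibular gland. Without animal 4 it was -1.62 ± 0.72, lower in 5 of 5, where the smallest p-value the exact test allows is 0.0625. Each gene was also tested singly by the exact test, with adjustment over the 10 tissue pairs. Neither BPIFA2 nor BPIFB1 passed in any pair, and the lowest adjusted p-value was 0.0781 for each. As the exact p cannot fall below 0.0312 with 6 animals, this test can hardly pass after adjustment over 10 pairs, and its failure says little. For BPIFA2 in submandibular minus sublingual gland the exact p was 0.0625 before adjustment.

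**Figure D4:**
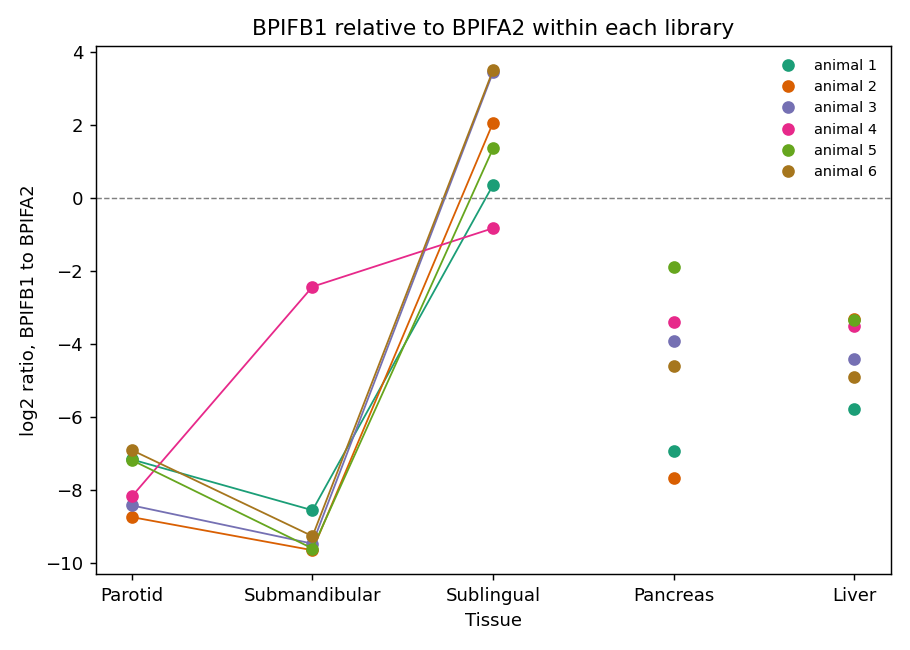
Log2 ratio of BPIFB1 to BPIFA2 (vertical axis) in each library of the 5 tissues (horizontal axis), with 1 colour per animal and lines joining the salivary glands of an animal. Sublingual gland lies between -0.82 and 3.51, above all parotid libraries and above all submandibular libraries, of which that of animal 4 is the highest at -2.43.

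The low levels of the abundant members outside their main gland were set beside those of genes that mark another organ. Relative to the tissue with the highest mean, BPIFA2 stood at 1.39% in pancreas, 2.01% in liver and 2.48% in sublingual gland. BPIFA4 stood at 0.840% in parotid, 1.33% in pancreas and 1.65% in liver, and BPIFB1 at 0.699% in pancreas, 0.964% in liver, 1.44% in submandibular gland and 1.52% in parotid. The 14 pancreas markers, which are exocrine genes and the islet hormone genes INS and GCG, stood at a median of 0.633 to 1.11% of their pancreas level in the other 4 tissues. Single genes among them ran from 0.413 to 1.46%. The 16 liver markers had medians of 0.613 to 0.863% of their liver level, with single genes from 0.405 to 24.1%. BPIFB1 in pancreas and liver and BPIFA4 in parotid thus lay between the lowest and the highest of the pancreas marker medians, and the other values of these 3 members lay above them. Of those others, BPIFA2 and BPIFA4 in pancreas and BPIFB1 in submandibular gland were still within the range of single pancreas markers. Whether these low levels were made by the tissue itself was not tested.

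The genes most like each abundant member were found by Pearson correlation of log2(TPM + 1) over the 30 libraries, which share 6 animals and 5 tissues, so the coefficients describe these libraries and carry no test. Genes with only a LOC identifier as symbol were left out of this search, so each ranking holds among the other genes that passed the filter. BPIFA2 was most like SMR3B, a proline-rich secreted protein gene (r = 0.986), and the cystatin CST5 (r = 0.979), and after each library's deviation from its tissue mean was taken these were still the first 2 (0.959 and 0.935), followed by BPIFA4 (0.921). SMR3B, too, was low in the submandibular library of animal 4, where it stood at 914 TPM and at no less than 103269 TPM in the other animals. That library also held CST5 at 68.7 TPM and BPIFA4 at 2.34 TPM, far below the other submandibular libraries. Its part in these coefficients was not tested. BPIFA4 was most like the cystatin CST2 (r = 0.920), which had means of 64530 TPM in submandibular gland and 413.8 TPM in parotid, and then the mucin MUC19 (r = 0.828). In the sublingual library of animal 5, where BPIFA4 and BPIFB2 were high, MUC19 was at 391 TPM and at no more than 14.6 TPM in the other 5. The 10 mucous cell markers, MUC19 among them, summed to 1647 TPM there, and the 8 muscle markers to 17242 TPM. The part of either in the levels of these members was not tested.

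BPIFB1 was most like C4H6orf58 (r = 0.941) and LCN2, a siderophore-binding defence protein (r = 0.937). LCN2 ranked the sublingual libraries much as BPIFB1 did, with 106.5 TPM in animal 4, 394.9 TPM in animal 1 and 1096 to 5565 TPM in the others. BPIFB2 was most like the protease gene CAPN9 (r = 0.932), and AGR2, a protein-folding factor of mucous cells (r = 0.883), was also among its 5 most alike genes. Between the members themselves, BPIFA2 and BPIFB4 had r = 0.922 and BPIFB1 and BPIFB6 r = 0.841, whereas BPIFA2 and BPIFB1 had r = -0.03. With deviations from the tissue means, BPIFA2 and BPIFB4 had r = 0.803. By the same measure BPIFB1 and BPIFB6 fell to 0.292, close to BPIFA2 and BPIFB1 at 0.261. BPIFA2 and BPIFB4 were both far below the other submandibular values in animal 4, at 406.4 and 0.0 TPM. The part of that library in their r of 0.803 was not tested.

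BPIF relatives with other symbols differed in where they were highest. LBP, a plasma protein made by liver that carries bacterial lipopolysaccharide, stood at 130.9 ± 72.0 TPM in liver (SD, n = 6) and at no more than 1.50 TPM in any library of the other tissues. CETP, which exchanges lipids between plasma lipoproteins, had its highest mean in liver at 12.2 ± 4.83 TPM. PLTP, a phospholipid carrier, stood at 4.29 to 27.1 TPM in sublingual gland and at 2.625 to 5.79 TPM in parotid. Its highest values, 298.9 and 270.6 TPM, came from the pancreas and submandibular libraries of animal 4. In parotid minus sublingual gland 1 of the 3 tested relatives was called lower and 0 higher, where 40.6% of all genes were lower. BPI, a granule protein of neutrophils, reached at most 0.432 TPM. In pancreas minus liver, 2 of the 3 tested relatives were lower, LBP (adjusted p = 3.65e-16) and CETP (-2.35, adjusted p = 0.000102), where 23.6% of all genes were. Of the BPIF genes BPIFC alone was called. LBP and CETP each reached 1 TPM in 9 libraries, 6 of them from liver, so their passing the filter already favoured a difference.

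Secreted defence proteins of saliva, a list of 22 genes without BPIF members, of which 18 were tested, shared the sublingual direction of BPIFB1 and not that of BPIFA2. In sublingual gland minus pancreas 18 of the 18 were higher (median log2 fold change 5.41, against 0.23 over all genes), compared with 12 higher and 1 lower for submandibular gland (median 2.35, against -0.33) and 5 higher and 1 lower for parotid (median 0.49, against -0.48). The shares of all genes called higher in these 3 comparisons were 10.4%, 2.25% and 2.24%. In parotid minus sublingual gland 16 of the 18 were lower and 0 higher, where 40.6% of all genes were lower and 0.893% higher, a lopsided background that trimmed-mean scaling evened out, and BPIFA2 was higher. Of 7 serous cell markers, parotid exceeded pancreas in 5, submandibular gland did so in 6 and sublingual gland in 4. Between glands they were split, with 3 higher and 3 lower in parotid minus sublingual gland (median -1.13) and again in submandibular minus sublingual gland (median -0.52), so that as a list they did not share the direction of BPIFA2. Of 8 tested mucous cell markers, 6 were higher and 1 lower in sublingual gland than in pancreas. In parotid minus sublingual gland 6 of them were lower and 0 higher, and in submandibular minus sublingual gland 2 were lower and 0 higher. In the latter 27.2% of all genes were lower and 0.753% higher, so 2 of 8 was near the share of all genes.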

How the data were processed

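Frozen sections of 5 tissues from 6 macaques were sequenced as 30 paired-end libraries, per the labels' protocols. The authors deposited 1 table of TPM values with a column per library; its name points to kallisto, which is among the tools in the submitters' processing notes. Versions, transcriptome, genome build and the summing of transcripts to genes are not given in the sources used here. Each column sums to 1000000, so depth is unknown, and abundant genes depress the values of the rest. Of the per-sample columns, 0 were unused.

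All BPIF symbols (10 of 21292 genes) were taken, and all 10 were found in the RefSeq table. Members, marker lists and tests were chosen with earlier results of these data known. limma 3.58.1 in R 4.3.3 was fitted to log2(TPM + 1) of the 13550 genes that reached 1 TPM in 6 libraries or more, with tissue and animal as terms and a variance trend. P-values are two-sided, adjusted by Benjamini-Hochberg within each of 10 tissue pairs, and the threshold was 0.05. The pairing comes from the labels, where a number marks an animal: the mean correlation of deviations from tissue means was 0.161 between libraries of the same animal and -0.0186 between different animals, and 37 of 60 same-animal pairs exceeded 0.1. Single values were tested by an exact sign-flip test over 64 sign patterns. Genes named by likeness were the 5 with the highest Pearson r over the 30 libraries and the 3 with the highest r of deviations. Genes with a LOC identifier as symbol were left out of both rankings. Other genes are named from fixed lists. Alternatives were no animal block, only the 12 libraries compared, trimmed-mean scaling, a pseudocount of 0.1, no filter, a filter of 5 TPM, and each animal left out. Leaving out the 2 libraries of animal 4, or all 5 libraries that stood apart, was chosen after seeing the data. The fit was tested on simulated data. The highest correlation between 2 libraries was 0.984, and 0 pairs held identical values.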

Additional observations from a re-analysis of the deposited data

Results flagged for a closer look

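In each tissue the highest and lowest of the 6 libraries were compared with the nearest other library, as a share of the tissue's whole range (Dixon's test, 5% level). Of 40 sets of a tested gene and a tissue, 7 held a library that stood apart, where chance alone gives about 2.

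Submandibular gland of animal 4 stood low for 3 genes: BPIFA2 at 406.4 TPM (next value 83114), BPIFA4 at 2.34 TPM (next 1042) and BPIFB4 at 0.0 TPM (next 1.30). The same library was low in serous cell markers and high in adipose markers. BPIFA4 stood high in the sublingual library of animal 5, at 725.2 TPM against a next value of 29.4 TPM.

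The other 3 were low levels or smaller gaps. BPIFB1 was 31.5 TPM in the liver of animal 1 (next 89.7 TPM), BPIFB6 was 0.379 TPM in the parotid of animal 5 (next 0.123 TPM), and BPIFB3 was 0.0 TPM in the pancreas of animal 6 (next 0.0243 TPM).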

How the results depend on the processing

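Sequencing depth is unknown, so values near 0 carry no detection limit. BPIFB1 was called against pancreas in added settings: for parotid at 2.60 with trimmed-mean scaling, 2.26 without the pancreas and submandibular libraries of animal 4 and 2.08 without the 5 libraries that stood apart (1.32 to 2.29 with each animal left out, called without animal 4), and for submandibular gland at 1.70 with only the 12 libraries compared, 2.27, 2.06 and 2.06 (1.23 to 2.14, called without animal 4). The sublingual excess in the BPIFB1 to BPIFA2 log2 ratio was 8.92 to 9.83 over parotid and 9.19 to 11.4 over submandibular gland with each animal left out, where 5 animals cannot give an exact p below 0.0625. Without the replicate block, the pairing by animal being dropped, the numbers of members called were the same in all 10 comparisons, and both excesses, 9.41 and 9.81, had an exact p of 0.00217.

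Signs changed only for differences that were not called. BPIFA2 in parotid minus submandibular gland ran from -1.55 to 0.25 with each animal left out, at 0.15 without animal 5 and 0.25 without animal 6. The ratio in submandibular gland minus parotid ran from -1.62 to 0.0077 (without animal 5). BPIFA2 in sublingual gland minus liver was 0.12 with trimmed-mean scaling, 0.12, 0.23 and 0.097 without animals 1, 4 and 6 (-0.49 without animal 5), and 0.44 without the 5 libraries. BPIFA4 became 0.15 in parotid minus pancreas and 0.13 in pancreas minus liver with trimmed-mean scaling. The cause was not tested. Members called changed by over 1.5 times, beside the changes given for animal 4, from 3 to 5 in parotid minus liver with trimmed-mean scaling (43.5% of all genes called) and with only the 12 libraries (70.7%), from 1 to 0 in pancreas minus liver with both, and from 1 to 0 in parotid minus submandibular gland with only the 12 libraries.

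The numbers of all genes called also moved. Without the pancreas and submandibular libraries of animal 4 they rose from 1316 to 3982 in submandibular gland minus pancreas, from 1887 to 4551 in sublingual gland minus pancreas, from 4114 to 6609 in pancreas minus liver, from 47 to 79 in parotid minus submandibular gland and from 3787 to 9035 in submandibular minus sublingual gland. With only the 12 libraries compared they rose from 1316 to 2582 in submandibular gland minus pancreas and fell from 3787 to 666 in submandibular minus sublingual gland, from 1887 to 1049 in sublingual gland minus pancreas and from 47 to 0 in parotid minus submandibular gland, where limma gave 632 genes an unadjusted p-value below 0.05. With trimmed-mean scaling they fell from 5625 to 2376 in parotid minus sublingual gland and from 3787 to 1995 in submandibular minus sublingual gland, and rose to 2178 in submandibular gland minus pancreas, 2890 in sublingual gland minus pancreas and 97 in parotid minus submandibular gland.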
